A study of Mus musculus with 6 samples.

Results

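The genes described here are 10 transcription factors that divide the ventricular zone of the embryonic spinal cord into progenitor domains: Sox1, Sox2, Sox3, Pax6, Dbx1, Dbx2, Nkx6-1, Nkx2-2, Olig1 and Olig2. They were chosen by name, and every probe whose RefSeq accession belongs to one of them was used. This gave 13 of the 55681 probes of the array and 10 of the 19900 genes that could be named on it. Of the 10 genes, 9 passed the filter on dim probes and were tested; Olig2 was well above background on 1 of 6 arrays and is given by its signal.

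Transcripts were measured on 1-colour Agilent mouse arrays in cells sorted by flow cytometry from dissected spinal cord of embryos at E12.5. All embryos carried Hb9::GFP, a transgene in which the promoter of the motor neuron gene Hb9 (Mnx1) drives green fluorescent protein, so the sort rests on that reporter. GFP-on cells, the motor neuron fraction, were hybridised to 2 arrays labelled mir-17~92 -/- and 2 arrays labelled WT. GFP-off cells, all other cells of the cord, gave 1 array for each genotype label. Nothing states whether arrays of a group came from separate embryos, litters or pools, so p-values measure only the spread between these arrays. An exact permutation test of one gene over 2 arrays a group has a smallest p of 0.333, so the tests borrow the spread of all genes, and so few arrays limit the precision of each value.

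Neural progenitors line the central canal and express SoxB1 factors (Sox1, Sox2, Sox3), which hold cells in the progenitor state. Sonic hedgehog secreted by the notochord and floor plate represses Pax6, Dbx1 and Dbx2 ventrally and induces Nkx6-1, Olig2 and Nkx2-2; pairs of these factors repress each other, which sharpens the borders between domains. Olig2 defines the domain that makes motor neurons and later oligodendrocytes, Nkx2-2 the domain ventral to it that makes V3 interneurons, and Dbx1 the domain that makes V0 interneurons. Most of these genes are switched off when a progenitor becomes a neuron, although some of them persist in subsets of neurons.

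The mir-17~92 cluster encodes several microRNAs from one primary transcript on mouse chromosome 14, and miR-17-3p has been described as a repressor of Olig2 in the border between Olig2 and Irx3 domains. The 6 hairpins lie at chr14:115043671-115044506 (GRCm38, plus strand). The mature sequences are shown because their seeds are what the knockout removes; each is printed 5′ to 3′ from RefSeq for GRCm38, with the seed (bases 2 to 8) in capitals.
mmu-miR-17-3p: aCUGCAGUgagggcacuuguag
mmu-miR-17-5p: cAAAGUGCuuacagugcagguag
mmu-miR-20a-5p: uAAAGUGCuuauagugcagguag
mmu-miR-18a-5p: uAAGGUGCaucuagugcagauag
mmu-miR-19a-3p: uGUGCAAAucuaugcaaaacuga
mmu-miR-19b-3p: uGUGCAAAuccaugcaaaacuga
mmu-miR-92a-3p: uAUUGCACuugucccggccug
miR-17-5p and miR-20a-5p share one seed, and miR-19a-3p and miR-19b-3p share another. The seed of miR-17-3p, the strand linked to Olig2, is shared with none of the others printed here. The arrays hold messenger RNA probes, and no microRNA level was measured.

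Levels are log2 processed signals minus the 75th percentile of the same array. The 75th percentile itself was 59.9 and 506 on the knockout-labelled GFP-on arrays, 48.5 and 64.5 on the wild-type-labelled ones, 550 on the knockout-labelled GFP-off array and 340 on the other. A gene near background could therefore be seen further down on some arrays than on others: the lowest level called well above background was -2.76 and -4.97 on the knockout-labelled GFP-on arrays, -2.10 and -2.30 on the wild-type-labelled ones, and -4.97 and -4.31 on the GFP-off arrays. Across tested genes the second wild-type-labelled GFP-on array correlated with the others, apart from its own partner (0.940), at 0.778 to 0.838, and all pairs without a wild-type-labelled GFP-on array at 0.928 to 0.978. The spike-in signal relative to the 75th percentile was 6.03 and 5.12 for knockout-labelled GFP-on cells, against 7.05 and 7.52 for wild-type-labelled ones. Slide row 1 held both knockout-labelled GFP-on arrays and row 2 all the rest, so genotype label and slide row cannot be told apart within GFP-on cells.

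The targeted transcript was read first. Mir17hg, the host transcript of the cluster, stood at 4.55 and 4.78 in knockout-labelled and at -2.38 (not well above background) and 2.73 in wild-type-labelled GFP-on cells. In GFP-off cells it stood at 4.62 with the knockout label and at -1.23 with the other. All 3 knockout-labelled arrays lay above all 3 wild-type-labelled arrays, which goes against the labels if the single probe lies in the deleted part; its position there is not known, and a probe outside that part checks nothing. Each direction between genotypes below therefore rests on the labels as given.

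**Figure D1:**
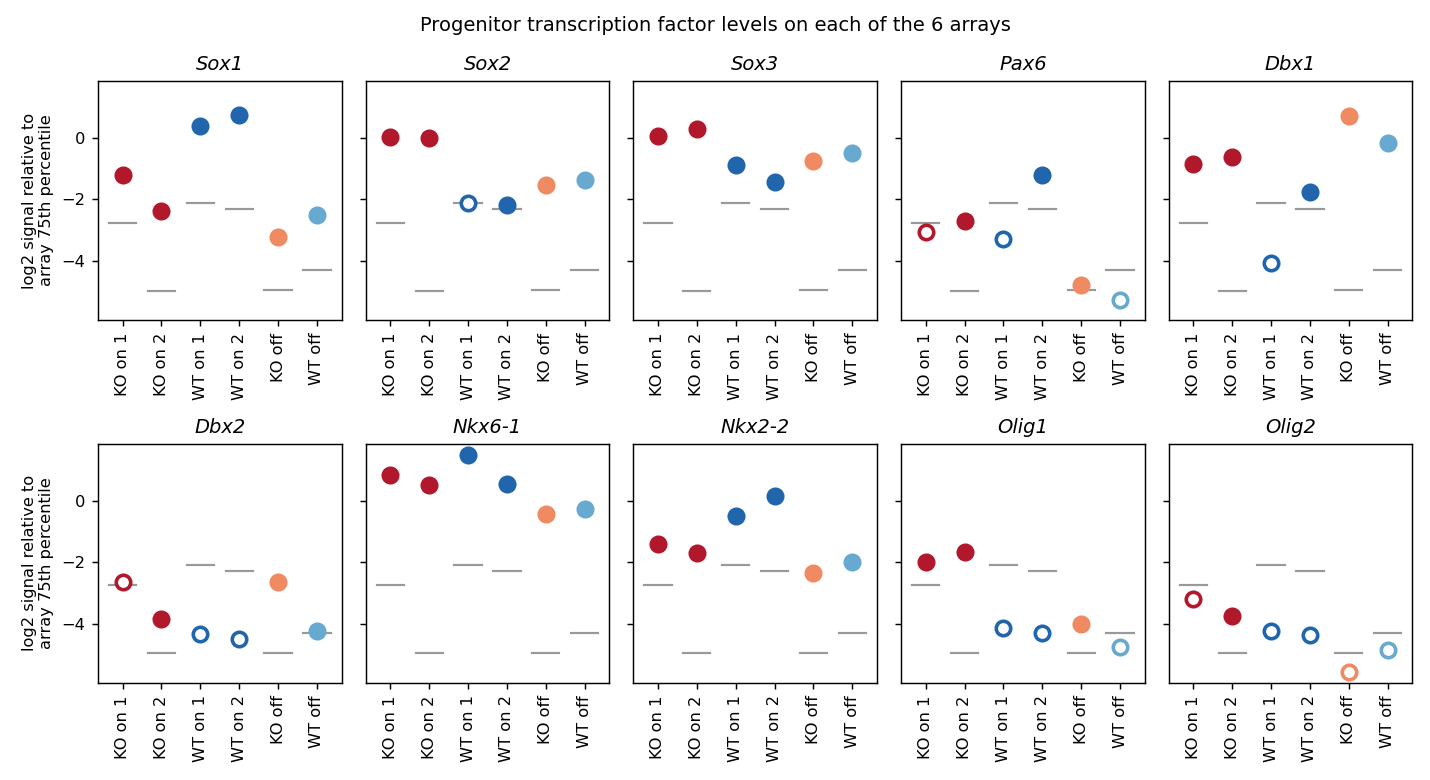
Log2 signal of each of the 10 genes relative to the array's 75th percentile (vertical axis), on the knockout-labelled (KO) and wild-type-labelled (WT) GFP-on and GFP-off arrays. Filled points were well above background, open points were not, and grey ticks mark the lowest level called well above background on that array; Sox2 and Olig1 lie highest on the 2 knockout-labelled GFP-on arrays, and Sox1 on the 2 wild-type-labelled ones.

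Sox1, Sox2 and Sox3 did not move as a block between genotype labels in GFP-on cells: Sox2 rose in the knockout-labelled arrays, Sox1 fell, and Sox3 did not pass the test. Sox2, which keeps neural stem cells undifferentiated, stood at 0.05 and 0.00 on the knockout-labelled GFP-on arrays. On the wild-type-labelled GFP-on arrays it stood at -2.11, not well above background, and -2.19. The GFP-off arrays, knockout-labelled then wild-type-labelled, gave -1.52 and -1.38. The knockout-labelled GFP-on arrays were thus the highest, the GFP-off arrays lay between, and the wild-type-labelled GFP-on arrays were the lowest, with no overlap. The log2 difference between genotype labels in GFP-on cells was 2.17 ± 0.46 (SE, n = 2 against 2, limma, Benjamini-Hochberg adjusted over all 14919 genes, adjusted p = 0.015). The call was lost when either knockout-labelled GFP-on array was left out (adjusted p = 0.0869 without the first and 0.125 without the second, at differences of 2.15 and 2.19).

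Sox3, the SoxB1 gene on the X chromosome, showed the same order. Its level was 0.07 and 0.30 on the knockout-labelled GFP-on arrays, -0.87 and -1.42 on the wild-type-labelled ones, and -0.73 and -0.48 on the GFP-off arrays. It was well above background on all 6 arrays. The difference between genotype labels in GFP-on cells, 1.33 ± 0.48, did not pass (adjusted p = 0.077, limma), and passed without the first wild-type-labelled GFP-on array (1.60, adjusted p = 0.0133).

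Sox1, the SoxB1 factor whose onset marks the neural plate and which is also kept in some neurons, was measured by 2 probes. On the brighter one it stood at -1.19 and -2.39 on the knockout-labelled GFP-on arrays, 0.40 and 0.75 on the wild-type-labelled ones, and -3.22 and -2.50 on the GFP-off arrays. Both wild-type-labelled GFP-on arrays were above all others, and both GFP-off arrays below all GFP-on arrays. The genotype difference in GFP-on cells was -2.37 ± 0.55 (n = 2 against 2, limma, adjusted p = 0.020). Without the second knockout-labelled GFP-on array it was -1.77 (adjusted p = 0.251).

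The other Sox1 probe gave a smaller difference in the same direction. It stood at -1.88 and -1.99 on the knockout-labelled GFP-on arrays, -1.06 and -1.65 on the wild-type-labelled ones, and -2.49 on each GFP-off array. Its genotype difference of -0.58 ± 0.49 did not pass (limma, adjusted p = 0.41 over all probes, of which 23.8% were called), so the fall of Sox1 rests on 1 of its 2 probes. Before scaling, the signal of the brighter probe ran only from 26.2 to 109 over the arrays, a 4.14-fold range, against a 45.0-fold range for Sox2 and a 25.8-fold range for Sox3; what part the scaling has in the Sox1 difference was not tested.

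Pax6, which patterns the ventral cord by opposing Nkx2-2, was dim. Its brighter probe stood at -3.05 (not well above background) and -2.72 on the knockout-labelled GFP-on arrays, at -3.30 and -1.20 (the former not well above background) on the wild-type-labelled ones, -4.78 on the knockout-labelled GFP-off array and -5.29 (not well above background) on the other. All 4 GFP-on arrays lay above both GFP-off arrays, and the genotype labels overlapped in GFP-on cells (-0.63 ± 0.69, adjusted p = 0.532; -1.68, adjusted p = 0.0106, without the first wild-type-labelled array and 0.42 without the second, limma). The order of the fractions rests in part on signals under the detection limit, which lay higher on 3 of the 4 GFP-on arrays than on the GFP-off arrays. The second Pax6 probe was not well above background on any array.

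Dbx1, which specifies V0 interneuron progenitors, was lower on every GFP-on array than on both GFP-off arrays. It stood at 0.71 (knockout-labelled) and -0.15 (wild-type-labelled) on the GFP-off arrays and at -0.83 and -0.62 on the knockout-labelled GFP-on arrays. On the wild-type-labelled GFP-on arrays it stood at -4.07 (not well above background) and -1.76. The spread between the wild-type-labelled GFP-on arrays (SD 1.63, n = 2) was the widest of the 9 tested genes, and the genotype difference in GFP-on cells, 2.19 ± 0.72, did not pass (limma, adjusted p = 0.059). It was 1.03 without the first wild-type-labelled GFP-on array and 3.34 without the second. The size of the latter rests on the first wild-type-labelled GFP-on array alone, where Dbx1 was under the detection limit.

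Dbx2, a repressor expressed in the domains around that of Dbx1, was close to the detection limit. It stood at -2.64 (not well above background) and -3.85 on the knockout-labelled GFP-on arrays, at -4.34 and -4.49 (neither well above background) on the wild-type-labelled ones, and at -2.64 and -4.24 on the GFP-off arrays. Among the 3 arrays on which it was well above background, it was highest on the knockout-labelled GFP-off array. The knockout-labelled array was the higher one in the GFP-off pair, by 1.60, with 1 array each and no test. The genotype difference in GFP-on cells was 1.17 ± 0.55 (limma, adjusted p = 0.152).

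The promoters of Dbx1, Dbx2 and Olig2 are shown because they hold the letters of a SOX motif and SoxB1 genes are in the set. The RefSeq table (GRCm38) held windows from 250 bases before to 50 bases after the start for 8 of the 10 genes, 9 windows in all; Olig1 and Sox3 had no entry. The letters CATTGT were searched on both strands, as were TGGGTGGTC (GLI), TAATTA (homeodomain), CACTTGA (NKX2) and CATATG (E-box). The stretches are the 120 bases before the start, on the strand of the gene, with the SOX letters in capitals.
Dbx1, chr7:49636836-49636955, minus strand: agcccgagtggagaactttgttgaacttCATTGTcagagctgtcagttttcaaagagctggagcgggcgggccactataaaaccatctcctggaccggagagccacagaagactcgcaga
Dbx2, chr15:95654772-95654891, minus strand: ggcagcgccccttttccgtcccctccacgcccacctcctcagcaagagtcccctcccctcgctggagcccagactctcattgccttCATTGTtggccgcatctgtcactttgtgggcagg
Olig2, chr16:91225430-91225549, plus strand: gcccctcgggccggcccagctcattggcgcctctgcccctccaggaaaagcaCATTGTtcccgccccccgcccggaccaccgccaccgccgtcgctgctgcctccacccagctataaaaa
The matches begin at positions -92 (Dbx1), -34 (Dbx2) and -68 (Olig2) from the start, and Dbx1 has a second one at -208. Of 32851 promoter windows of the same length, 12.6% hold CATTGT on either strand. Nkx2-2 has CACTTGA at -197, which 3.06% of windows hold. TAATTA (5.29% of windows), CATATG (3.92%) and TGGGTGGTC (0.253%) are in none of the windows of these genes, and 5 of the 9 windows hold none of the motifs searched. No binding was measured on these arrays, and a match is a description of the letters only.

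Nkx6-1, which is induced ventrally by hedgehog signalling and stays on in some motor neurons, was well above background on all 6 arrays. It stood at 0.86 and 0.53 on the knockout-labelled GFP-on arrays, 1.51 and 0.54 on the wild-type-labelled ones, and -0.44 and -0.26 on the GFP-off arrays. All 4 GFP-on arrays lay above both GFP-off arrays, and the genotype labels overlapped. The genotype difference in GFP-on cells, -0.33 ± 0.52, did not pass (limma, adjusted p = 0.672).

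Nkx2-2, the factor of the V3 domain and later of oligodendrocyte precursors, stood on its brighter probe at -1.39 and -1.70 on the knockout-labelled GFP-on arrays. The wild-type-labelled GFP-on arrays gave -0.48 and 0.15, and the GFP-off arrays -2.36 and -1.98. As for Sox1, the wild-type-labelled GFP-on arrays were the highest, the knockout-labelled ones lay between, and the GFP-off arrays were the lowest. The genotype difference of -1.38 ± 0.49 did not pass (limma, adjusted p = 0.073), and did without the first wild-type-labelled GFP-on array (-1.70, adjusted p = 0.00993). Its second probe was well above background on 1 array, the second knockout-labelled GFP-on one, where it stood at -3.51.

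Olig1, a partner of Olig2 in motor neuron and oligodendrocyte progenitors, rose in the knockout-labelled GFP-on arrays. It stood there at -1.98 and -1.68, at -4.14 and -4.30 on the wild-type-labelled GFP-on arrays, at -4.01 on the knockout-labelled GFP-off array and at -4.78 on the wild-type-labelled one. None of the 3 wild-type-labelled arrays was well above background, while all 3 knockout-labelled arrays were. The fitted difference in GFP-on cells was 2.39 ± 0.47 (n = 2 against 2, limma, adjusted p = 0.012). Olig1 passed the filter on dim probes only through knockout-labelled arrays, so this p-value is not independent of how the gene was kept. Because both wild-type-labelled arrays lie under their detection limit, the measured bound is at least 1.30-fold higher in the knockout-labelled GFP-on arrays. The call was lost without the second of these (2.24, adjusted p = 0.115).

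Olig2, the factor that defines the motor neuron progenitor domain, was at or under background nearly throughout. It stood at -3.19 (not well above background) and -3.77 on the knockout-labelled GFP-on arrays, -4.23 and -4.39 on the wild-type-labelled ones, and -5.58 and -4.86 on the GFP-off arrays. The second knockout-labelled GFP-on array was the one array on which it was well above background. With no filter on dim probes its genotype difference was 0.83 ± 0.53 (limma, adjusted p = 0.289), which did not pass and is based mostly on signals under the detection limit. A difference of Olig2 between genotype labels was thus not detectable at these signals.

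Irx3, the repressor that borders Olig2 dorsally and was chosen after its values were seen, stood at 1.55 and 2.44 on the knockout-labelled GFP-on arrays, 2.63 and 1.24 on the wild-type-labelled ones, and 2.15 and 2.18 on the GFP-off arrays. The groups overlapped.

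Between genotype labels in GFP-on cells, 2 of the 9 tested genes rose in the knockout-labelled arrays (Sox2 and Olig1), 1 fell (Sox1) and 6 did not pass. Of all 14919 genes tested, 15.8% rose and 7.24% fell, 23% in all, so the share of these 9 genes that was called is not far from that background. The median difference of the 9 genes was 1.17, and that of all tested genes 0.34. The former is the value of Dbx2, whose signals in GFP-on cells were mostly under the detection limit. The arrays of the genotype labels did not overlap for 7 of the 9 genes: 5 lay higher in the knockout-labelled arrays (Dbx1, Dbx2, Olig1, Sox2 and Sox3; 41.3% of all genes do) and 2 lower (Nkx2-2 and Sox1; 26% of all genes do). For Olig1 and Dbx2 neither wild-type-labelled GFP-on array was well above background, as for 19.5% of all tested genes. The size of the Olig1 rise and the order of Dbx2 thus rest on signals under the detection limit.

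**Figure D2:**
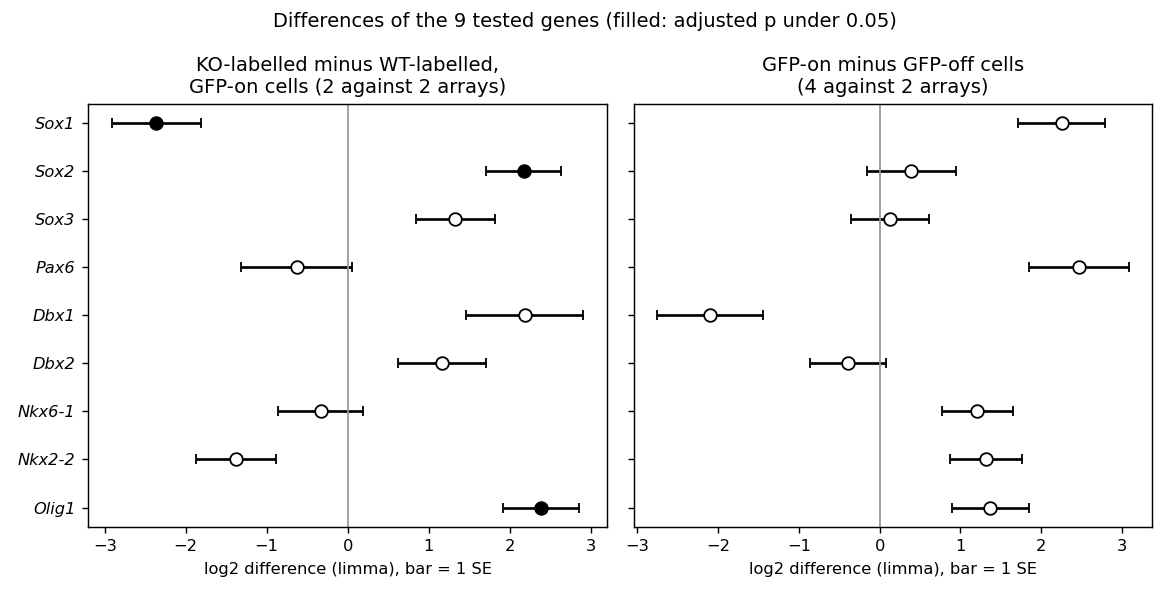
Log2 differences of the 9 tested genes between genotype labels in GFP-on cells (left) and between GFP-on and GFP-off cells (right), from limma, with bars of 1 SE; filled points passed an adjusted p of 0.05. On the left Sox1 lies at -2.37, Sox2 at 2.17 and Olig1 at 2.39; on the right no gene passed.

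These calls depended on how the array background was treated. With normexp background correction in place of the processed signal, Olig1 gave -0.04, Sox2 0.77 and Sox1 -1.48, and none of the 9 genes was called. With each array's median in place of its 75th percentile, the median over all genes moved from 0.34 to -0.13 and the share of higher genes among all calls from 68.6% to 46.2%; Sox2 (1.71) and Olig1 (1.92) stayed higher and Sox1 (-2.83) lower. With quantile normalization that share was 88.9% and the median over all genes 0.45. Sox2 (2.46) and Olig1 (3.70) stayed higher there, Dbx2 was called higher as well (2.84, limma, adjusted p = 0.0324), and Sox1 (-2.26) did not pass (limma, adjusted p = 0.0542).

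The genotype labels of the GFP-off cells have 1 array each and no test. The knockout-labelled array differed from the wild-type-labelled one by -0.72 for Sox1 (0.005 on its second probe), -0.15 for Sox2 and -0.25 for Sox3. For Pax6 the difference was 0.52, for Olig1 0.77, for Nkx6-1 -0.18, for Nkx2-2 -0.38 and for Dbx1 0.85. Olig1 was at least 1.23-fold higher on the knockout-labelled GFP-off array. These are values of 2 single arrays.

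Setting the sorted motor neuron fraction against the rest of the cord asks which domain genes its cells carry. None of the 9 genes passed this test (limma, 4 arrays against 2; 6 of them had an unadjusted p under 0.05, as had 22.1% of all genes), where 2.29% of all genes were called, 1.54% higher and 0.751% lower in GFP-on cells. Pax6 gave 2.47 ± 0.62 (adjusted p = 0.073) and Sox1 2.25 ± 0.54 (adjusted p = 0.067). Olig1 gave 1.37 ± 0.48, Nkx2-2 1.31 ± 0.45 and Nkx6-1 1.21 ± 0.44, with adjusted p of 0.155, 0.145 and 0.168. Sox2 (0.39 ± 0.55), Sox3 (0.13 ± 0.49) and Dbx2 (-0.39 ± 0.47) lay within 1 SE of 0, and Dbx1 gave -2.10 ± 0.66 (adjusted p = 0.121). The descriptions give the first knockout-labelled GFP-on array and the GFP-off array of that label the tag A3, and the matching wild-type-labelled pair the tag B4, without saying what a tag means. With the tag as a block, the difference rests on these 2 pairs alone, since the other GFP-on arrays have tags of their own. In that fit 1025 of all 14919 genes were called, and 3 of the 9 genes passed. These were Sox1 (2.46, limma, adjusted p = 0.0265), Pax6 (1.86, adjusted p = 0.0476) and Dbx1 (-2.73, adjusted p = 0.035). In these pairs Pax6 was well above background only on the knockout-labelled GFP-off array, so its higher level in GFP-on cells was not measured. Dbx1 was not well above background on the wild-type-labelled GFP-on array, so the size of its difference was not fully measured.

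The arrays of the 2 fractions did not overlap for 5 of the 9 genes. Sox1, Pax6, Nkx6-1 and Nkx2-2 were higher on all 4 GFP-on arrays than on both GFP-off arrays, which holds for 10.9% of all genes, and Dbx1 was lower on all 4, which holds for 16.8%. For Pax6, 2 of the GFP-on arrays and 1 GFP-off array were not well above background, so its order was only partly measured. The median over the 9 genes was 1.21, that of all genes -0.21. Of the 9 genes, Sox1 was the one most often called in this comparison under the other settings run. Besides the tag block, it passed within the wild-type-labelled arrays, without the second knockout-labelled GFP-on array, and among genes above background on all 6 arrays (adjusted p = 0.0394, 0.0168 and 0.025). Pax6 gave 2.48 without the second knockout-labelled GFP-on array. Of the arrays left, it was well above background only on the second wild-type-labelled GFP-on array and the knockout-labelled GFP-off array. For Sox1, the second probe gave 0.84 (adjusted p = 0.28 over all probes, of which 2.22% were called). In bulk samples, fewer cells that express a gene and less RNA of it in each cell cannot be told apart.

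**Figure D3:**
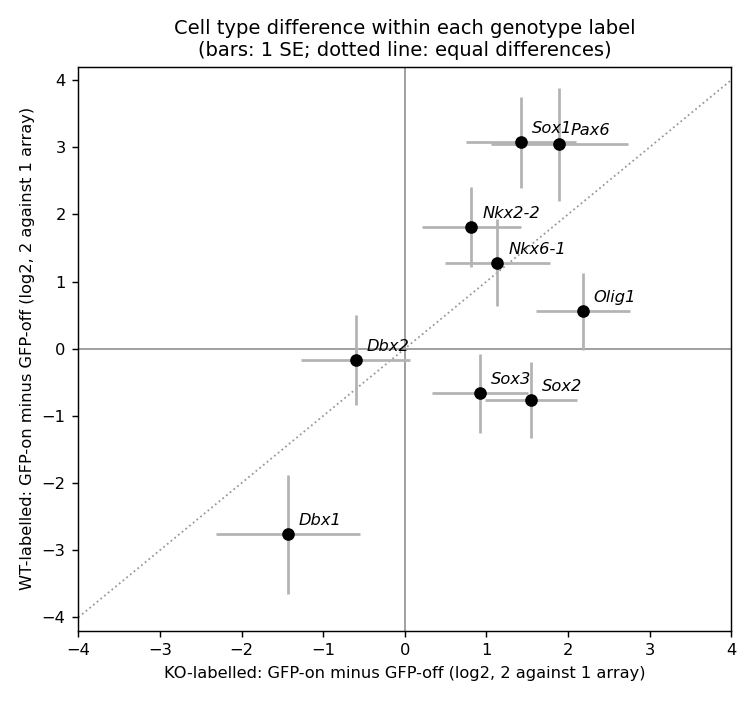
Log2 difference of GFP-on minus GFP-off cells within the knockout-labelled arrays (horizontal) and within the wild-type-labelled arrays (vertical), 2 arrays against 1 each, with bars of 1 SE; the dotted line marks equal differences. Sox2 and Sox3 lie above 0 on the horizontal axis and below 0 on the vertical one, and the other 7 genes have the same sign on both.

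Taken within each genotype label, the fitted differences between fractions had opposite signs for Sox2 and Sox3, but none of these differences passed the test. Sox2 was 1.55 ± 0.57 higher in GFP-on cells of the knockout-labelled arrays and gave -0.77 ± 0.57 in the wild-type-labelled ones; Sox3 gave 0.92 ± 0.59 and -0.66 ± 0.59. The difference between these differences, the interaction, was 2.32 ± 0.80 for Sox2 (limma, unadjusted p = 0.018, adjusted p = 0.437) and 1.58 ± 0.84 for Sox3 (adjusted p = 0.588), so neither passed. No gene of the array passed the interaction test (0% of 14919 by limma; 1430 had an unadjusted p under 0.05).

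The other 7 genes had the same fitted sign within both labels, but for Olig1 none of the wild-type-labelled arrays, and for Dbx2 neither wild-type-labelled GFP-on array, was well above background, so their sign there was not measured. Within the knockout-labelled arrays 7 of the 9 genes were higher on both GFP-on arrays than on the GFP-off array and 1 (Dbx1) lower, as are 32.8% and 42.9% of all genes; within the wild-type-labelled arrays 5 were higher and 4 lower (Olig1 and Dbx2 counted), as are 30.6% and 46.8%. Sox1 gave 1.43 ± 0.67 within the knockout-labelled arrays and 3.07 ± 0.67 within the wild-type-labelled ones, where it passed (adjusted p = 0.0394). Within the wild-type-labelled arrays, which all lay in slide row 2, 1.49% of all genes were higher and 4.36% lower; within the knockout-labelled arrays 0% were called. Pax6 gave 1.89 ± 0.84 and 3.04 ± 0.84, Nkx2-2 0.82 ± 0.60 and 1.81 ± 0.60, and Dbx1 -1.43 ± 0.89 and -2.77 ± 0.89, in the same order of labels. Olig1 gave 2.18 ± 0.57 and 0.56 ± 0.57, Nkx6-1 1.13 ± 0.64 and 1.28 ± 0.64. The interaction of Sox1 was -1.64 ± 0.95 and that of Olig1 1.62 ± 0.81 (adjusted p = 0.627 and 0.563).

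The other transcription factors of the progenitor domains gave few calls. Of 24 such genes 21 were tested, and none was called between GFP-on and GFP-off cells (2 at an unadjusted p under 0.05). Pax7, of the dorsal domains, gave -2.31 (adjusted p = 0.051) and Sox9, which starts gliogenesis, -2.44 (adjusted p = 0.121); the zinc finger gene Sp8 gave 1.76 and Atoh1, of the most dorsal progenitors, 1.21. Between genotype labels in GFP-on cells, Prdm12, which specifies V1 progenitors and sensory neurons, rose by 3.45 ± 0.67 on its brighter probe (limma, adjusted p = 0.012), while its other probe gave -1.74. Sox9 gave 2.02 (adjusted p = 0.055), Sp8 1.996 (0.083; -0.04 on its other probe) and Olig3 1.64 (0.084).

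The hedgehog pathway, which sets the ventral domains, had 12 tested genes of 13; Shh itself was not tested. None was called between fractions, 9 had an unadjusted p under 0.05 (22.1% of all genes had), and 10 of the 12 differences were below 0, with a median of -1.41 where all genes had -0.21. Gas1, a hedgehog co-receptor, gave -2.12 on its brightest probe (-1.99 and -0.13 on the others), Boc, another co-receptor, -1.88 (adjusted p = 0.074), the transcriptional effector Gli2 -1.78 (0.063) and the repressor Gli3 -1.54. Between genotype labels the median of the brightest probes was 0.26 and none of them was called (2 at an unadjusted p under 0.05, limma). Dimmer probes of 4 of these genes did fall, tested singly over all probes: Smo gave -3.54, Cdon -2.69, Sufu -2.21 and Gas1 -1.84 (limma, adjusted p = 0.0137, 0.011, 0.0295 and 0.0286). The brightest probes of Smo, Cdon and Gas1 gave 0.59, 0.26 and 0.25, so probes of these genes disagreed. For Sufu the brightest probe had the same direction (-1.92) and did not pass (limma, adjusted p = 0.065).

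Postmitotic neurons that descend from the ventral domains were represented by 13 tested genes of 14. Evx1, the marker of V0 neurons that arise from Dbx1 progenitors, was 3.85 ± 0.55 higher in GFP-on cells (limma, adjusted p = 0.019), and Foxd3 was 4.29 ± 0.40 higher (adjusted p = 0.009). Evx1 stood at 0.44, 0.81, 1.496 and 0.77 on the GFP-on arrays (knockout-labelled first) and at -2.19 and -3.75 on the GFP-off arrays, the opposite of the order of Dbx1. Foxd3 marks V1 neurons and neural crest. Sim1, the marker of V3 neurons from the Nkx2-2 domain, gave -1.25.

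Between genotype labels in GFP-on cells, 1 of these genes rose and 3 fell (limma). Sox14, a marker of V2 interneurons, fell by 3.15, Pax2, of several inhibitory interneuron classes, fell by 2.49 on its brightest probe (-2.11 and -2.18, not passing, on the others) and Lmx1b, of dorsal and serotonergic neurons, fell by 2.16. Sox14 (-4.74) and Pax2 (-4.11) were not well above background on the first knockout-labelled GFP-on array, so the sizes of their falls rest in part on signals under the detection limit. The list's median was 0.02.

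Radial glial and cell cycle genes mark the cells that normally express SoxB1 factors. Of 9 radial glial genes, 3 rose and 1 fell in the knockout-labelled GFP-on arrays, where 15.8% of all genes rose and 7.24% fell, and none was called between fractions (limma). Fabp7, the brain lipid-binding protein of radial glia, rose by 2.98, from 2.66 and 1.95 to 5.21 and 5.36, with 3.64 and 3.86 on the GFP-off arrays. Ednrb, an endothelin receptor, rose by 3.26, the glutamate transporter gene Slc1a3 rose by 2.03, and Notch1, the receptor that maintains progenitors, fell by 2.03.

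Of 14 cell cycle genes, 3 rose in the knockout-labelled GFP-on arrays on their brightest probe, against 15.8% of all genes, and none fell, with a median of 1.48. Other probes lay on either side of the brightest ones. One of Ccnb1, a mitotic cyclin, fell by 2.23 (limma, adjusted p = 0.0169 over all probes). Probes of Cdk1 (-1.57 and 0.43, against 1.71 on the brightest) and Birc5 (-1.43 and -1.12) did not pass. Another probe of Ccnb1 gave 1.42 and one of Mki67 gave 1.72, above their brightest probes (0.95 and -0.50), and neither passed. Ccnd1, the cyclin of the G1 phase, rose by 3.11, from 0.60 and 0.68 to 3.77 and 3.73, against 3.64 and 3.42 on the GFP-off arrays. Top2a, a topoisomerase of dividing cells, rose by 2.55 and Mcm2, a replication licensing factor, by 2.06. Between fractions none was called, and all 14 differences were below 0, with a median of -1.16 (limma, 4 at an unadjusted p under 0.05, where 22.1% of all genes lay).

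Summed over the list, the cell cycle genes stood at 112.0 and 142.6 times the 75th percentile on the knockout-labelled GFP-on arrays, at 98.9 and 65.2 on the wild-type-labelled ones, and at 207.2 and 149.4 on the GFP-off arrays. The radial glial genes stood at 169.3 and 194.1, at 119.8 and 65.6, and at 146.6 and 125.6, in the same order. Both sums are thus higher on the knockout-labelled than on the wild-type-labelled GFP-on arrays. Gene by gene, 7 of 9 radial glial and 11 of 14 cell cycle differences were above 0. Of the 9 tested domain genes, 5 lay higher without overlap (Dbx1, Dbx2, Olig1, Sox2 and Sox3), as do 41.3% of all genes. The opposite order held for 2, Sox1 (-2.37) and Nkx2-2 (-1.38), as for 26% of all genes, and the remaining 2 overlapped. For Olig1 and Dbx2 neither wild-type-labelled GFP-on array was well above background, and the order of Dbx2 was not measured. The part of other cells in the sorted fraction in these differences was not tested.

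**Figure D4:**
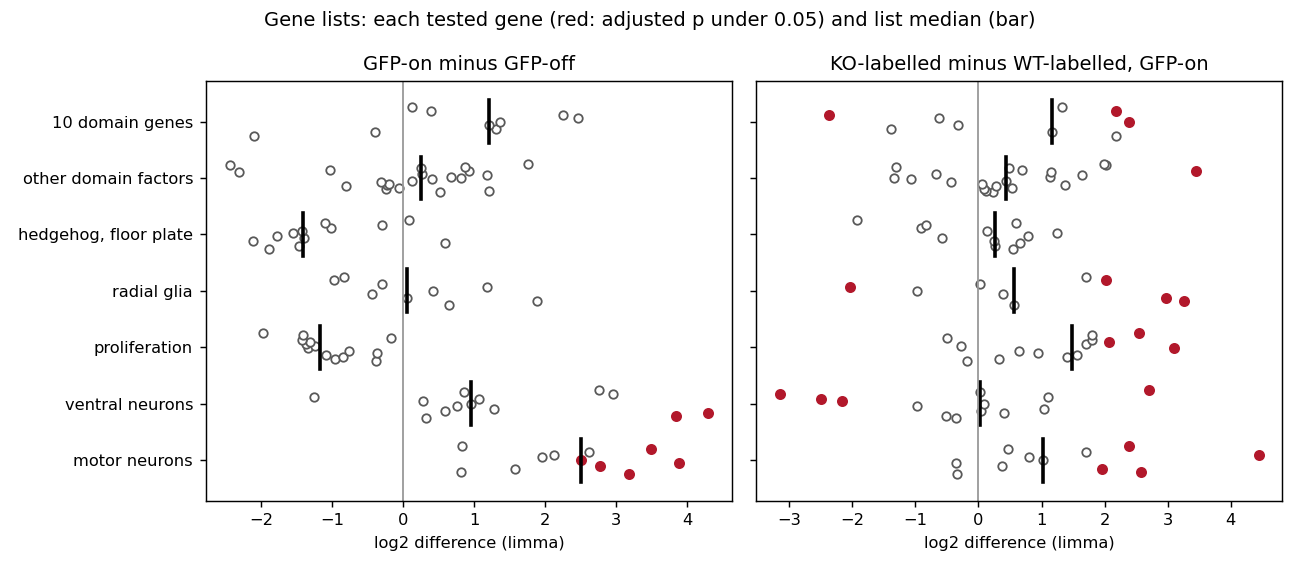
Log2 differences of the tested genes of 7 lists, GFP-on minus GFP-off cells (left) and knockout-labelled minus wild-type-labelled arrays in GFP-on cells (right); each point is a gene, red points passed an adjusted p of 0.05 and the bar is the median. The medians of the hedgehog (-1.41) and cell cycle (-1.16) genes lie below 0 on the left, that of the motor neuron genes lies at 2.50, and that of the 10 domain genes at 1.21 over its 9 tested members.

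The sort was read from markers of the cell types it could hold. Of 11 motor neuron genes tested, 5 were higher in GFP-on cells and none lower (median 2.50); Mnx1 itself had no matched probe. Their summed level was 102.7 and 118.6 on the knockout-labelled GFP-on arrays, 49.5 and 45.3 on the wild-type-labelled ones, and 15.3 and 12.47 on the GFP-off arrays, and 4 of the 11 rose in the knockout-labelled GFP-on arrays. Of 6 pan-neuronal genes 2 were higher in GFP-on cells, and of 8 erythroid genes 6 were lower. Erythroid genes summed to 246.6 to 577.9 on GFP-on arrays and 1387.1 to 1515.2 on GFP-off arrays, and 7 or 8 of the 8 were well above background on each array.

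Markers of other cells also moved. Of 8 sensory neuron and neural crest genes, 2 were higher in GFP-on cells (Foxd3 and Sox10, 4.29 and 3.93), and their summed level was 36.0 to 70.0 on the GFP-on arrays and 7.8 to 8.5 on the GFP-off arrays. Between genotype labels 2 rose, among them Prdm12. Of 8 microglial genes none was called between fractions and 5 rose in the knockout-labelled GFP-on arrays; their sums there were 23.6 and 25.05, with 8.6 and 13.2 on the wild-type-labelled ones. Endothelial genes (6) gave 2 higher and 1 lower between genotype labels and none between fractions. Mesenchymal genes (8) gave no call in either comparison. Of 5 tested oligodendrocyte precursor genes, which include Olig1 and Nkx2-2, 1 (Sox10) was higher in GFP-on cells and 1 (Olig1) rose between genotype labels; summed, they stood at 43.7 and 24.99, at 29.2 and 25.4, and at 28.9 and 22.8 on the knockout-labelled GFP-on, wild-type-labelled GFP-on and GFP-off arrays. The part of these cells in the differences of the 10 genes was not tested.

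Among the 10138 genes well above background on all 6 arrays, the genes whose levels ran most like those of a domain gene were read as a description. Likeness is Pearson's r over the 6 arrays, which share their groups and their scaling. Sox1 was most like Cd22 (0.998) and Scn1a (0.997). Sox3 was most like Mllt11 (0.996) and Adar (0.994), Nkx6-1 like Arf2 (0.994) and Ntmt1 (0.987), and Nkx2-2 like Leng8 and Frmd4b (0.998 each). Cd22 stood at 3.45 and 3.93 on the wild-type-labelled GFP-on arrays, at 1.99 and 0.43 on the knockout-labelled ones and at -0.15 and 0.51 on the GFP-off arrays; its wild-type-labelled GFP-on arrays were the highest, and its second knockout-labelled GFP-on array lay among the GFP-off arrays.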

How the data were processed

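Per the labels' protocols, total RNA of sorted cells was amplified from 0.5 ug and labelled with Cy3. Signals came from Agilent Feature Extraction, version 10.5.1.1 per the file headers and 9.1 per the submitters' processing notes. The deposited scanner files give each spot's processed signal intensity, background-subtracted and not scaled between arrays, and other flags (above background, saturated, irregular); no spot was saturated. The authors' value table is in log2 and equals the values used here within a tolerance of 0.01, without centring of genes. All 6 arrays lay on 1 slide.

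Here, log2 processed signals of unflagged spots were averaged per probe, and each array's 75th percentile was subtracted. Probes were named by RefSeq accession (GRCm38.p6; 26307 of 55681 named). Probes well above background on 2 or more arrays were kept, and the brightest kept probe stood for its gene, which left 14919 genes. limma 3.58.1 in R 4.3.3 was run with Benjamini-Hochberg adjustment over all of them and a threshold of 0.05. GFP-on and GFP-off cells were compared in an additive model with genotype label (3 residual degrees of freedom), genotype labels and the interaction in a model of 4 group means (2 residual degrees of freedom). A lone GFP-off array is assumed to vary like the motor neuron groups. The steps were tested on simulated data. Bounds ("at least") use the lowest level called well above background. The median signal replaced the mean signal in the normexp alternative. Members and lists were chosen with earlier results of these data known; from the lists, called genes and up to 4 with the largest difference were named, and likeness was given for the 2 closest genes. Some genes that this rule takes are not reported here.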

Additional observations from a re-analysis of the deposited data

Results flagged for a closer look

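For Sox2 and Sox3 the fitted differences between fractions had opposite signs within the genotype labels, and none of these differences passed the test. In knockout-labelled cells both GFP-on arrays lay above the GFP-off array, and in wild-type-labelled cells both lay below it. The interaction was 2.32 on the log2 scale for Sox2 (limma, adjusted p = 0.437) and 1.58 for Sox3 (adjusted p = 0.588), and neither passed the test.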

How the results depend on the processing

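Among the 10 genes no interaction was called under any alternative run. Genes called between fractions numbered 342; there were 0 with quantile normalization, 0 without a filter, 563 above background on all 6 arrays, 0 in knockout-labelled and 873 in wild-type-labelled arrays alone, and 1025 with the shared tag as a block, with 0 to 1102 leaving out 1 array (0 without the first wild-type-labelled GFP-on or the wild-type-labelled GFP-off array, 26 without the first and 1102 without the second knockout-labelled GFP-on array, 873 without the knockout-labelled GFP-off array). Of the 9 genes, 0 were higher; normexp, the filter on 6 arrays and wild-type-labelled arrays alone gave 1, the shared tag block 2, and leaving out 1 array 0 to 2. Lower were 0, and 1 (Dbx1) with the replicate block or the tag block. Between genotype labels, 3435 genes were called; normexp gave 1415, quantile normalization 1702, no filter 0 and the additive model 0, with 905 to 7015 leaving out 1 array (2085 without the first and 905 without the second knockout-labelled GFP-on array, 7015 without the first wild-type-labelled one). The 2 higher genes became 0 with normexp, no filter, the filter on 6 arrays (which drops Sox2 and Olig1) or the additive model, and 0 to 3 leaving out 1 array. The 1 lower gene became 0 with normexp, quantile normalization, no filter, the mean of probes or the additive model, 2 with the median or the filter on 6 arrays, and 0 to 3 leaving out 1 array. No gene was called for the interaction; normexp gave 1, the replicate block 34 and leaving out 1 array 12 to 1475.

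Replicate numbers did not pair the arrays (correlation of same-numbered deviations -0.152). With the replicate block, 3608 genes were called between genotype labels, Dbx1 among the 3 higher members. The crossed pairing, added after seeing the data, called 5269 genes, 4 members higher and 2 lower.

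Directions reversed between fractions for Sox2 (-0.77) and Sox3 (-0.66) without the knockout-labelled GFP-off array or in wild-type-labelled arrays alone, for Sox3 (-0.03) without the second knockout-labelled GFP-on array (leaving out 1 array, Sox2 ran from -0.77 to 1.55 and Sox3 from -0.66 to 0.92), and for Dbx2 (0.85) with normexp. Between genotype labels they reversed for Pax6 (0.42; lowest -1.68) without the second and Nkx6-1 (0.15; lowest -0.82) without the first wild-type-labelled GFP-on array, and with normexp for Olig1 (-0.04) and Dbx2 (-0.68). In the interaction they reversed with normexp for Nkx6-1 (0.07) and Dbx1 (-0.56), for Dbx2 with quantile normalization (1.09), without the second knockout-labelled GFP-on array for Nkx6-1 (0.02) and Dbx2 (0.17; lowest -1.04), and without the first wild-type-labelled one for Nkx6-1 (0.34; lowest -0.63). The cause was not tested. The wild-type-labelled GFP-on arrays had the highest detection limits, which bounds what Olig1, Olig2 and Dbx2 can show there. Sox2, Pax6 and Dbx1 were not well above background on the first of these arrays, so the limit bounds them there too.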
